A study of Mus musculus with 4 samples.

Results

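Fn1, the gene of the matrix protein fibronectin, was followed through the cells of the mouse hippocampus in single-cell RNA sequencing data. Fn1 is 1 of 31055 genes in the count tables. It was chosen by measured values, because its level summed over all cells was lower in both Dp(10)2Yey libraries than in both WT libraries. That contrast and every genotype value of Fn1 drawn from it are therefore given as a description, with no test. The question asked of the data was how far the lower sum goes with the number of cells that carry Fn1 and how far with the amount of Fn1 in each of them.

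Single-cell suspensions of dissociated hippocampus were made from 2 Dp(10)2Yey and 2 WT mice, all male and 3 months old, and 1 droplet library was sequenced per mouse. The Dp(10)2Yey line, a model of Down syndrome, carries a duplicated segment of chromosome 10 in the hemizygous state and had been backcrossed to C57BL/6J. The WT mice were littermates with the same background and no duplication. The mice were prepared on 2 days, with 1 of each genotype per day, and the sources used here do not state which replicate numbers share a day. Libraries are compared as separate animals, and with 2 against 2 an exact permutation test cannot give a two-sided p under 0.33.

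Fibronectin is a secreted glycoprotein that cells assemble into fibrils around them through integrin receptors. In the brain it lies in the basement membrane around blood vessels and in the meninges, and endothelial cells and fibroblasts are known to make it. It binds collagens, fibrillins and fibulins, is remodelled by proteases, and its gene responds to transforming growth factor beta. Fn1 lies on the minus strand of chromosome 1, from 71585520 to 71653200 in mm10, outside the duplicated segment.

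Each value is a count of unique molecular identifiers (UMIs), one per captured RNA molecule. After removal of red blood cells and of barcodes with under 200 genes, 1018 and 1682 cells remained in WT replicates 1 and 2, and 1350 and 2199 in Dp(10)2Yey replicates 1 and 2. These held 2939108, 6721578, 5008065 and 8838437 UMIs in the same order. The median was 2081.5 UMIs per cell in WT replicate 1 against 3688.5 in WT replicate 2, and 3386.5 and 3670 in the Dp(10)2Yey pair, so WT replicate 1 was the shallowest library. Over the 6 pairs of libraries, 8 cell barcodes occurred in both members of a pair. Cells were assigned to a class by gates of 8 marker genes, of which at least 3 had to be detected, and Fn1 is in no gate. Microglia made up 39.3% of the cells, oligodendrocytes 17.5%, astrocytes 13.5% and neurons 3.50%, and 8.48% were ungated. All 8 markers of each of these 4 classes were detected among the cells of every library. As a check of the genotype labels, 31 of the 62 genes in the duplicated segment could be tested in the all-cell sums. Of these, 29 were higher in both Dp(10)2Yey libraries than in both WT libraries, beside 13.1% of all genes tested. Their median log2 fold change was 0.57.

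Fn1 was rare and concentrated. In all, 1187 Fn1 UMIs were found in 212 of 6249 cells, with a median of 2 UMIs in those cells and a single UMI in 84 of them. Only 18 cells held 50% of the UMIs. The endothelial gate, with 239 cells and 3.82% of all cells, held 849 of the UMIs, or 71.5%. Together with 22 fibroblast-gated cells it held 89.6%. One fibroblast-gated cell of WT replicate 2 alone had 176 Fn1 UMIs among 50429 UMIs, 30.7% of the Fn1 of its library, and the next cell in rank had 48.

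Endothelial cells had the highest Fn1 level of the classes with at least 10 cells in every library. Levels are given as CPM, the Fn1 UMIs per 1000000 UMIs of the class in a library. The endothelial level was 1155 and 1008 CPM in WT replicates 1 and 2, and 859 and 644 CPM in Dp(10)2Yey replicates 1 and 2, with a mean of 916 ± 218 (SD, n = 4). The lowest of these values was above the highest value of every other gated class of that size. Ungated cells followed at a mean of 82.6 ± 74.0 CPM, with a range from 10.6 to 153 CPM. Of 530 ungated cells only 13 had a Fn1 UMI, and single cells of WT replicates 2 and 1 held 29 and 16 of their 67 UMIs. Oligodendrocyte precursors averaged 7.11 ± 5.04 CPM, from 1.62 to 12 CPM, and microglia 3.66 ± 3.44 CPM, from 1.10 to 8.63 CPM. The means were 2.41 CPM in ependymal cells, 1.55 CPM in astrocytes, 0.915 CPM in immature neurons and 0.428 CPM in oligodendrocytes. From the ungated cells down to the oligodendrocytes, each class overlapped the next in the range of its libraries, so neighbours in this order did not differ beyond their spread. No Fn1 UMI was found in 219 neurons. The limit on their share of cells with a UMI, set at 3 cells of 219, was 1.37%.

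**Figure D1:**
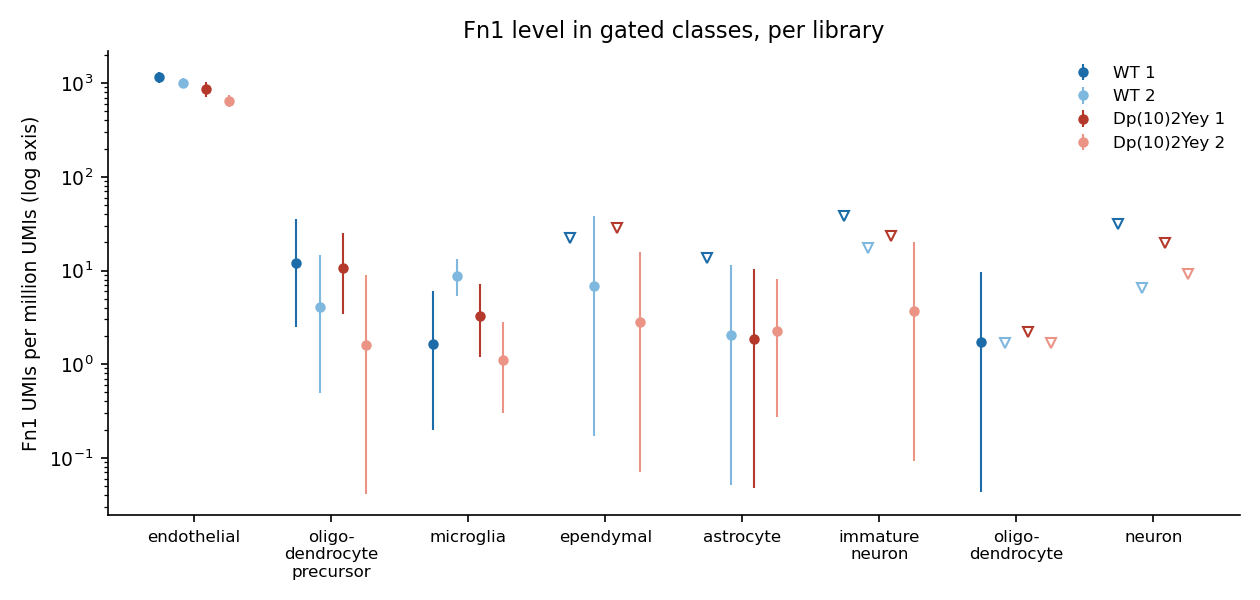
Fn1 level in CPM (log axis) in each gated class with at least 10 cells in every library, one point per library, with bars for the exact 95% Poisson interval, which covers counting error only. Open triangles mark a library with no Fn1 UMI, placed at the level that 3 UMIs would give; the 4 endothelial points, from 644 to 1155 CPM, lie above all others.

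A Fn1 UMI was detected in 163 of 239 endothelial cells, or 68.2% (95% Clopper-Pearson interval 61.9% to 74.1%), at a median depth of 2144 UMIs. In oligodendrocytes, taken as the class that should lack the gene, 1 of 1095 cells had one, or 0.0913% (0.00231% to 0.508%), at a median depth of 4784 UMIs. After each cell was thinned to 1000 UMIs the shares were 47.0% and 0.0113%, with 72 endothelial cells and 73 oligodendrocytes left out for lower depth. The deeper class thus had nearly no Fn1. The part of free RNA in the endothelial values was not tested. The ratio of the pooled endothelial level to the pooled oligodendrocyte level was 4941, with a counting interval from 884 to 195384 that is wide because of the single oligodendrocyte UMI.

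The class contrast was not used to choose Fn1 and was tested on sums per class and library with the library as a block (edgeR quasi-likelihood test, Benjamini-Hochberg adjustment over 9713 genes, adjusted p under 0.01). Fn1 was higher in endothelial cells than in oligodendrocytes in 4 of 4 libraries, with a fitted log2 fold change of 11.04 (SE 0.27, adjusted p = 8.22e-44). In that comparison 20.9% of the genes tested were called higher and 21.1% lower in endothelial cells. Fn1 could pass the filter on low counts through the endothelial class, where it was high. Oligodendrocytes had also been taken as the class that should lack the gene. The endothelial call is therefore given as a description, and nothing is read from the size of its adjusted p. Microglia were also called, at a log2 fold change of 3.65 (SE 0.77, edgeR adjusted p = 2.58e-05), where 29.8% of all genes were called higher. Oligodendrocyte precursors were called at 3.62 (SE 0.93, edgeR adjusted p = 0.000687), beside 25.0% of all genes. Each of these smaller calls was lost when 1 library was left out. Without WT replicate 2 the microglial log2 fold change was 2.43 (edgeR adjusted p = 0.0175), and without Dp(10)2Yey replicate 1 that of the precursors was 3.01 (edgeR adjusted p = 0.0193). Of 33 microglial Fn1 UMIs, 20 were in a single cell of WT replicate 2, which also had 83 UMIs of Mgp and 24 of Prg4, genes that led the fibroblast gate. It was a mixed cell, one with at least 0.5 of the markers of a second class detected. Without mixed cells the microglial log2 fold change was 2.46 (edgeR adjusted p = 0.00832). Astrocytes (edgeR adjusted p = 0.0499), ependymal cells (0.0921), immature neurons (0.368) and neurons (0.659) did not pass.

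Summed over all kept cells, the Fn1 level was 81.7 and 85.2 CPM in WT replicates 1 and 2, and 29.4 and 25.7 CPM in Dp(10)2Yey replicates 1 and 2, from 240, 573, 147 and 227 UMIs. Both WT libraries were high and both Dp(10)2Yey libraries low, as the choice of the gene required. The means were 83.5 ± 2.54 CPM and 27.5 ± 2.59 CPM (SD, n = 2 each), and the fitted log2 fold change was -1.62 (SE 0.15). Of the 13803 genes tested in these sums, 13.2% had both Dp(10)2Yey values below both WT values and 13.1% had both above, and nothing is read from Fn1 being among the former. With edgeR 0 genes were called at an adjusted p under 0.01 (0% of those tested), against 390 at an unadjusted p under 0.05, and DESeq2 called 4. Without a filter on low counts edgeR called 88 of 20419 genes (0.431%).

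The close values of the WT pair came from different cells. In WT replicate 1 the endothelial gate held 90.4% of the Fn1 UMIs, and in WT replicate 2 it held 52.5%, with another 36.0% in 7 fibroblast-gated cells. In Dp(10)2Yey replicates 1 and 2 the endothelial gate held 87.8% and 89.0%. Without its cell of most Fn1 UMIs, WT replicate 2 was at 59.5 in place of 85.2 CPM, still above both Dp(10)2Yey libraries, and the fitted log2 fold change was -1.36.

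**Figure D2:**
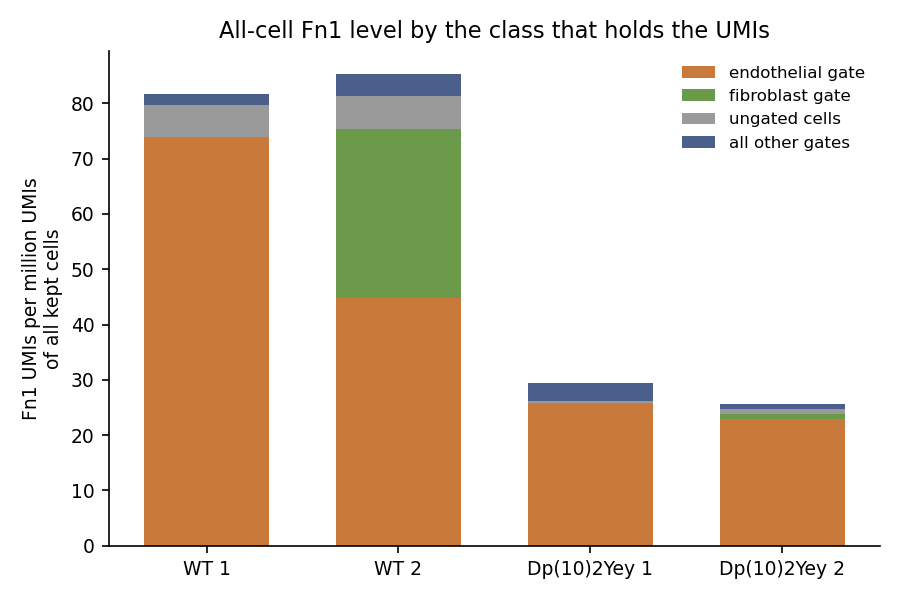
Fn1 level in CPM over all kept cells in each library, as bars from 0 divided by the gate of the cells that held the UMIs. The totals are 81.7 and 85.2 CPM in WT and 29.4 and 25.7 CPM in Dp(10)2Yey replicates 1 and 2; the fibroblast-gated portion is large in WT replicate 2 alone.

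The all-cell sum was then taken apart by cells. Cells with a Fn1 UMI numbered 37.3 and 39.8 per 1000 cells in WT replicates 1 and 2, and 32.6 and 28.6 per 1000 in Dp(10)2Yey replicates 1 and 2. Each such cell held on average 6.32 and 8.55 Fn1 UMIs in WT, against 3.34 and 3.60 in Dp(10)2Yey. Neither measure overlapped between the genotypes, and the second differed more. The log2 ratio of the Dp(10)2Yey mean to the WT mean was -0.33 for the number of Fn1-positive cells and -1.10 for the UMIs in each. All UMIs per cell, which also enter the CPM, were 2887 and 3996 in WT and 3710 and 4019 in Dp(10)2Yey, which overlapped, with a log2 ratio of 0.17. Both differences were smaller without mixed cells, which were left out here after the data were seen. Fn1-positive cells then numbered 27.8 and 29.0 per 1000 in WT and 28.9 and 24.9 per 1000 in Dp(10)2Yey, which overlapped, with a log2 ratio of -0.077. Their Fn1 UMIs were 3.48 and 4.15 in WT and 2.86 and 3.02 in Dp(10)2Yey, without overlap, with a log2 ratio of -0.38.

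Within the endothelial gate the same separation was made. Endothelial cells were 4.91% and 4.16% of the cells in WT replicates 1 and 2, against 3.41% and 3.32% in the Dp(10)2Yey pair. The WT shares were both higher, with a log2 ratio of -0.43 and a two-sided exact permutation p = 0.33, the smallest this design allows. Of 17 shares compared, those of 16 gates and of ungated cells, 5 did not overlap between the genotypes. The others of these 5 were astrocytes, mural cells, peripheral myeloid cells and T and NK cells, all higher in Dp(10)2Yey, each with an exact permutation p = 0.33. The mural, peripheral myeloid and T and NK gates held only 14, 6 and 18 cells in all. Counted in UMIs, endothelial cells made up 6.39% and 4.44% of the WT libraries and 3.0% and 3.55% of the Dp(10)2Yey libraries.

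The share of endothelial cells with a Fn1 UMI overlapped between the genotypes as measured and after thinning to 500 UMIs, but not after thinning to 1000 UMIs. As measured it was 62% (95% Clopper-Pearson interval 47.2% to 75.3%) in WT replicate 1 and 72.9% (60.9% to 82.8%) in WT replicate 2. In Dp(10)2Yey replicate 1 it was 71.7% (56.5% to 84.0%), and in Dp(10)2Yey replicate 2 it was 65.8% (53.7% to 76.5%). The intervals all overlap, at median depths of 1834, 2235, 2414 and 2144 UMIs in the same order. Thinned to 1000 UMIs per cell the shares were 51.2% and 52.9% in WT and 50.6% and 36.4% in Dp(10)2Yey, with 20, 19, 12 and 21 cells left out. Both Dp(10)2Yey values were below both WT values there, that of replicate 1 by little and that of replicate 2 by more. Thinned to 500 UMIs, which left out no cell, they were 30.8% and 33.2% in WT and 34.4% and 30.9% in Dp(10)2Yey, and the genotypes overlapped. The difference in percentage points, Dp(10)2Yey minus WT, was -8.52 at 1000 UMIs, 0.619 at 500 UMIs and 1.32 without thinning, so its direction depended on the depth used.

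The number of Fn1 UMIs in each Fn1-positive endothelial cell did separate the genotypes, at 7 and 5.90 in WT replicates 1 and 2 and 3.91 and 4.21 in Dp(10)2Yey replicates 1 and 2. Both WT libraries were higher, with a log2 ratio of -0.67. The separation was lost without the mixed cells, at 3.43 and 4.14 in WT and 3.21 and 3.50 in Dp(10)2Yey, which overlapped, with a log2 ratio of -0.17. The endothelial Fn1 level of 1155 and 1008 CPM in WT and 859 and 644 CPM in Dp(10)2Yey gave a fitted log2 fold change of -0.53 (SE 0.22). It was closer to 0 than the all-cell value of -1.62, and without Dp(10)2Yey replicate 2 the log2 ratio of the endothelial level was -0.33 in place of -0.53. When each cell was given equal weight instead, the mean of the single-cell levels was 868 and 884 CPM in WT and 962 and 781 CPM in Dp(10)2Yey. The genotypes then overlapped and the log2 ratio was -0.01, a measure added after the data were seen.

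**Figure D3:**
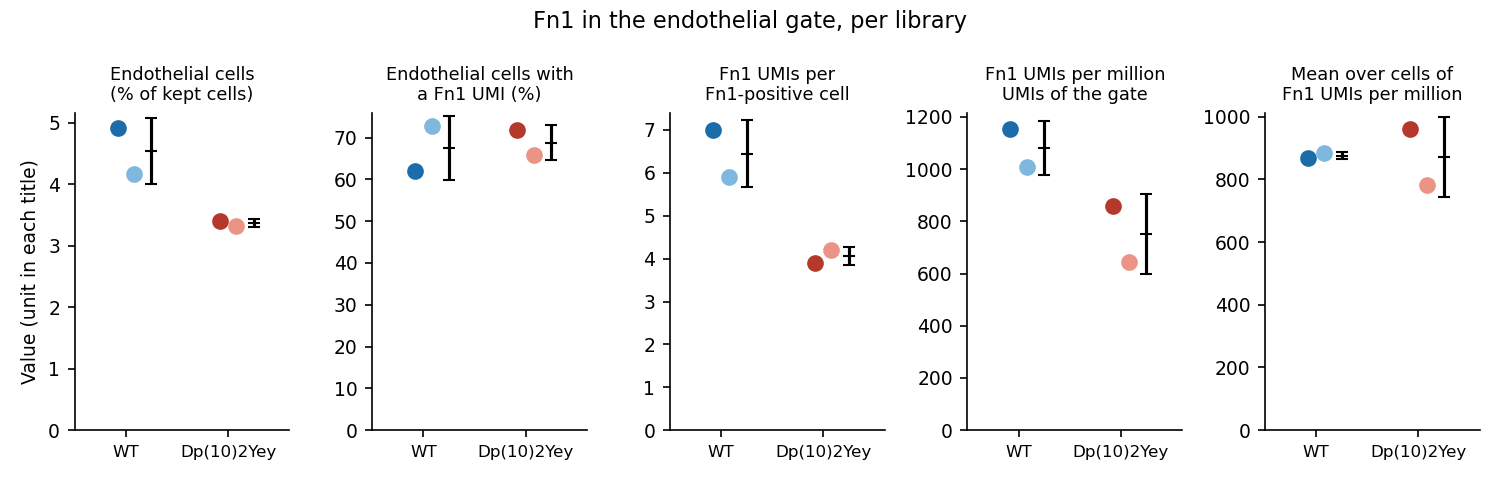
Fn1 in endothelial-gated cells, one point per library (darker for replicate 1, paler for replicate 2), with the mean and SD of the 2 libraries of each genotype as black bars. The panels give the endothelial share of cells (%), the share with a Fn1 UMI (%), Fn1 UMIs per Fn1-positive cell, the Fn1 level of the gate in CPM, and the mean of the single-cell values; WT and Dp(10)2Yey overlap in the second and the last.

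Deep cells carried most of the endothelial sum. Endothelial cells of 5000 UMIs or more, a boundary chosen after the data were seen, numbered 11 and 19 in WT replicates 1 and 2 and 10 and 18 in Dp(10)2Yey replicates 1 and 2. Their Fn1 level was 1374 and 1164 CPM in WT and 841 and 638 CPM in Dp(10)2Yey, a log2 ratio of -0.78. Both WT values were higher, and these cells held 78.8% and 79.7% of the endothelial Fn1 UMIs in WT, against 50.4% and 66.8% in Dp(10)2Yey. In the remaining cells, with under 5000 UMIs, the level was 725 and 660 CPM in WT and 878 and 655 CPM in Dp(10)2Yey. Those values overlapped, and the log2 ratio was 0.15. Whether the genotype difference itself varies with depth was not tested.

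**Figure D4:**
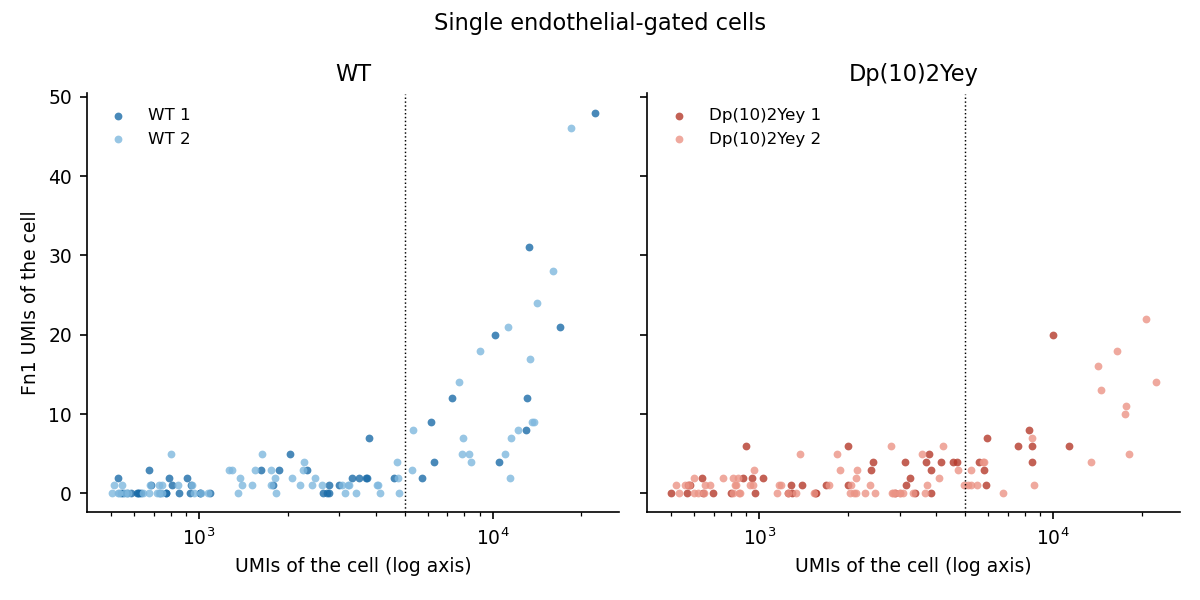
Fn1 UMIs of each endothelial-gated cell against all UMIs of that cell (log axis), with WT on the left and Dp(10)2Yey on the right; the dotted line marks 5000 UMIs. The highest cell has 48 Fn1 UMIs in WT and 22 in Dp(10)2Yey, and to the left of the line no cell exceeds 7.

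Markers of another class were common among the deep cells, with a second class in 33 of the 58 cells of 5000 UMIs or more and in 13 of the 181 below. In 46 endothelial-gated cells, at least 0.5 of the markers of a second class were detected, which was the mural class in 36 of them. These cells, 10 and 16 in WT replicates 1 and 2 and 7 and 13 in Dp(10)2Yey replicates 1 and 2, had a Fn1 level of 1395 and 1089 CPM in WT and 878 and 510 CPM in Dp(10)2Yey. The WT values were both higher, with a log2 ratio of -0.84. The other 193 endothelial cells were at 858 and 940 CPM in WT and 851 and 745 CPM in Dp(10)2Yey, which did not overlap either, with a log2 ratio of -0.17. Among them, the 25 cells of 5000 UMIs or more were at 1041 and 1093 CPM in WT and 671 and 788 CPM in Dp(10)2Yey, without overlap and with a log2 ratio of -0.55. The 168 below were at 762 and 761 CPM in WT and 982 and 707 CPM in Dp(10)2Yey, which overlapped, with a log2 ratio of 0.15. The deep cells thus separated the genotypes with a second class and without one. The mural gate itself held 14 cells and 4 Fn1 UMIs, all in 1 cell of Dp(10)2Yey replicate 1.

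Over all classes, 322 cells (5.15%) had such a second class, and they held 639 of the 1187 Fn1 UMIs. The cell with 176 Fn1 UMIs was one of them. With these mixed cells left out, an alternative added after the data were seen, the all-cell level was 36.1 and 32.0 CPM in WT replicates 1 and 2 and 23.2 and 20.2 CPM in Dp(10)2Yey replicates 1 and 2. Both WT libraries remained higher, and the fitted log2 fold change was -0.65 in place of -1.62. The mixed cells were 4.52% and 5.59% of the cells in WT and 5.04% and 5.18% in Dp(10)2Yey, so their number did not separate the genotypes. Their Fn1 UMIs did, at 146 and 382 in WT and 41 and 70 in Dp(10)2Yey, where the 382 become 206 without the cell of 176. Whether such a droplet held 1 cell or several was not tested.

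**Figure D5:**
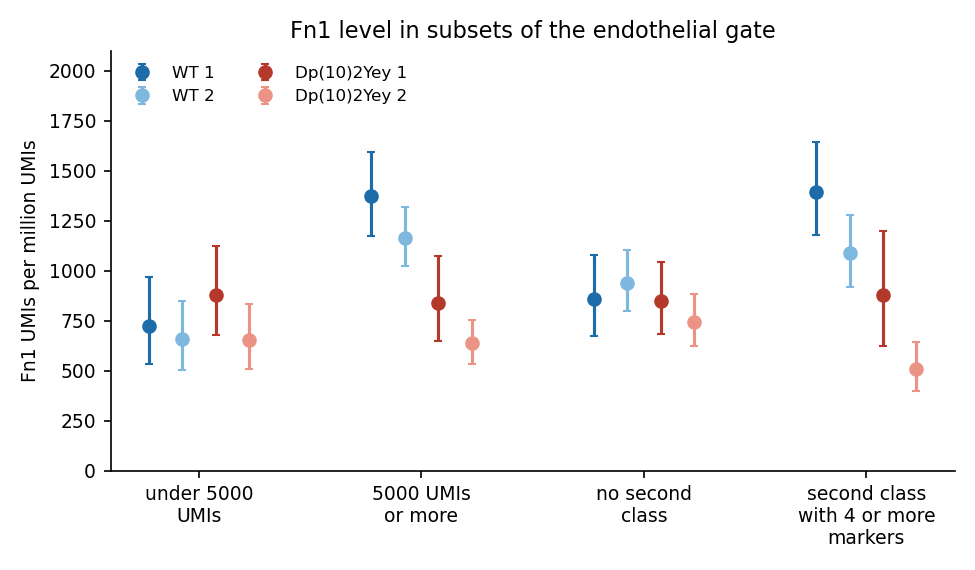
Fn1 level in CPM in subsets of the endothelial gate, by depth and by the detection of a second class's markers, one point per library with the exact 95% Poisson interval, which covers counting error only. The genotypes overlap under 5000 UMIs and lie farthest apart in cells with 5000 UMIs or more and in cells with a second class.

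The difference between the all-cell means, -55.9 CPM from WT to Dp(10)2Yey, was divided between class makeup (the share of UMIs in each class) and the Fn1 level within classes. Makeup accounted for 45.8% and level for 54.2%. By class, endothelial cells gave 62.6% of the difference, of which 35.2% was makeup and 27.4% level. Fibroblast-gated cells gave 26.6% and ungated cells 9.32%. The division was not stable over the 4 pairs of 1 WT and 1 Dp(10)2Yey library, where makeup accounted for 65.1%, 46.6%, 76.8% and 30.3%. Endothelial cells gave 91.9% and 91.1% in the pairs with WT replicate 1, and 34.0% and 36.8% in those with WT replicate 2. Fibroblast-gated cells gave 54.8% and 49.9% with WT replicate 2 and 0% and -1.62% with WT replicate 1.

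Endothelial markers were lower in the same libraries as Fn1. The 8 endothelial markers summed to 1395 and 1055 CPM of all cells in WT replicates 1 and 2 and to 668 and 751 CPM in Dp(10)2Yey replicates 1 and 2. All 8, of which Cldn5, a tight junction protein, was the most abundant, were lower in both Dp(10)2Yey libraries, beside 13.2% of all genes tested. Their median log2 fold change was -0.74, with a range from -0.88 to -0.59. Within the endothelial gate their sum was 21195 and 22542 CPM in WT and 20884 and 20083 CPM in Dp(10)2Yey, with a median log2 fold change of -0.09 over the 8 markers. None of the 8 was at 0 in any library, in all cells or in the gate.

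Mural markers were not lower. Their 8 members summed to 268 and 174 CPM of all cells in WT and 247 and 255 CPM in Dp(10)2Yey, with a median log2 fold change of 0.26. Inside the endothelial gate they summed to 2523 and 2561 CPM in WT and 3315 and 3811 CPM in Dp(10)2Yey. Rgs5 and Vtn were the most abundant, and Acta2 and Tagln, which mark smooth muscle, were at 0 in the gate in WT replicate 1, as was Tagln in Dp(10)2Yey replicate 1. Fibroblast markers summed to 35.7 and 57.1 CPM of all cells in WT and 9.98 and 43.1 CPM in Dp(10)2Yey, with Lum at 0 in Dp(10)2Yey replicate 1. The part of these markers in the Fn1 difference was not tested.

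Outside the endothelial gate, 10 cells had UMIs of both Mgp, a matrix Gla protein, and Prg4, a secreted proteoglycan, genes picked after their values were seen. There were 2 and 4 of them in WT replicates 1 and 2, with 17 of 23 and 253 of 272 Fn1 UMIs outside the gate, or 73.9% and 93.0%. Dp(10)2Yey replicates 1 and 2 had 0 and 4 of them, with 0 of 18 and 8 of 25 Fn1 UMIs, or 0% and 32%. These cells thus held most of the Fn1 outside the gate in the WT libraries but not in the Dp(10)2Yey libraries. The cell with 176 Fn1 UMIs is among them, with 1075 UMIs of Mgp and 153 of Prg4 and none of the endothelial markers Cldn5, Flt1 and Pecam1. Of the 10, 4 were fibroblast-gated, 4 ungated, 1 astrocyte-gated and 1 microglia-gated, the last being the microglial cell with 20 Fn1 UMIs, and with so few no difference between libraries can be read. The other 6000 cells outside the endothelial gate held 60 Fn1 UMIs, at 6 and 19 in WT and 18 and 17 in Dp(10)2Yey.

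Arterial and other endothelial cells were compared within libraries, a contrast that the choice of Fn1 did not use. A cell counted as arterial-marked with at least 2 of 8 arterial genes detected. In these cells the Fn1 level was 1278 and 1016 CPM in WT replicates 1 and 2 and 1004 and 601 CPM in Dp(10)2Yey replicates 1 and 2. In the cells without them it was 995, 1003, 821 and 680 CPM in the same order. The log2 ratio was 0.36, 0.02, 0.29 and -0.18, with a mean of 0.12 ± 0.25 (SD, n = 4, exact sign-flip permutation p = 0.375, two-sided). No difference was detectable, and with 4 libraries this test cannot give a p under 0.05. Marked cells were deeper in every library, with a median of 10167 against 1004 UMIs in WT replicate 1 and 9825.5 against 1693.5 in WT replicate 2. In Dp(10)2Yey replicates 1 and 2 it was 4557 against 2005 and 7114 against 2027 UMIs.

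Genes of the fibronectin system were followed in 5 lists with 65 members, of which 58 passed the filter on low counts. In the all-cell sums edgeR called 0 of them between the genotypes, against 2 at an unadjusted p under 0.05, and DESeq2 called 0. Of the 58, 8 had both Dp(10)2Yey values below both WT values and 6 had both above, or 13.8% and 10.3%, beside 13.2% and 13.1% of all genes. The median log2 fold change was -0.03 over the lists and -0.01 over all genes.

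Among the matrix partners of fibronectin, 4 of 17 tested members were lower and 1 higher without overlap, beside 13.2% and 13.1% of all genes. Eln, which encodes elastin, had 5.10 and 6.99 CPM in the WT libraries against 2.60 and 3.51 CPM in the Dp(10)2Yey libraries, a log2 fold change of -1.0 (SE 0.39). Fbn1, which encodes the microfibril protein fibrillin-1, had -0.75 (SE 0.46) and Fbln2, which encodes fibulin-2, -0.74 (SE 0.44). These 3 genes were low in all libraries, with 64 to 106 UMIs in total. Col6a1 and Col6a2, chains of collagen VI whose genes lie in the duplicated segment, had log2 fold changes of -2.02 (SE 1.01) and -1.30 (SE 0.76), with overlapping libraries. Both directions rest on WT replicate 2, without which the log2 fold changes were 1.11 and 0.32. Of 105 Col6a1 UMIs in WT replicate 2, 82 came from the cell with the most Fn1, and of 75 Col6a2 UMIs, 52. Both genes were at 3.45 CPM in that library without this cell.

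Of 12 receptors tested, 3 were higher without overlap and 0 lower, beside 13.1% and 13.2% of all genes, and none passed the edgeR threshold. The 3 were Itgb1, the beta subunit of the main fibronectin-binding integrins, with a log2 fold change of 0.13 (SE 0.12), the syndecan Sdc4 with 0.35 (SE 0.17) and the hyaluronan receptor Cd44 with 0.39 (SE 0.31). In adhesion signalling, Ptk2, the focal adhesion kinase, was 1 of 10 lower, at -0.21 (SE 0.15). In remodelling, Adamts1, a metalloprotease, was 1 of 11 lower, at -0.31 (SE 0.14), and the gelatinase Mmp9 was higher, at 1.92 (SE 0.63), from 41 UMIs in all. Mmp9 was also among the leading genes of the peripheral myeloid gate, which held 0 and 0 cells in WT and 2 and 4 in Dp(10)2Yey. The 8 markers of that gate, S100a9 the most abundant, summed to 97.3 and 2.38 CPM of all cells in WT replicates 1 and 2 and to 351 and 258 CPM in the Dp(10)2Yey pair. Of the 8, 5 were higher in both Dp(10)2Yey libraries, beside 13.1% of all genes tested. At 0 were Chil3 in every library but Dp(10)2Yey replicate 2, and S100a8, S100a9, Retnlg and Ly6c2 in WT replicate 2. Their part in the Mmp9 value was not tested. In the list for transforming growth factor beta, Ctgf and Tgfb3 were 2 of 8 lower, at -0.96 (SE 0.61) and -0.37 (SE 0.43). The value of Ctgf, from 47 UMIs in all, ran from -2.15 to -0.47 over the alternative fits. None of these genes passed the edgeR threshold.

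Within endothelial sums 23 list genes could be tested. Their median log2 fold change was 0.02, beside 0.01 over all 4239 genes tested, with 1 lower and 3 higher without overlap, where 16.2% of all genes were lower and 16.9% higher. The lower gene was Adamts1, at 144 and 161 CPM in WT and 79.9 and 108 CPM in Dp(10)2Yey. In all, 323 of the 4239 genes had a log2 fold change at or below the -0.53 of Fn1. The edgeR test called 0 genes in endothelial sums (0% of those tested), against 156 at an unadjusted p under 0.05. DESeq2 was run on the all-cell sums alone. Over the 8 gated classes with at least 10 cells in every library, edgeR called 3 of 46075 tests (0.00651%), against 1605 at an unadjusted p under 0.05, and none was a list gene.

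Against oligodendrocytes, endothelial cells had higher levels of 7 of 8 matrix partners tested, 3 of 8 receptors, 5 of 10 adhesion genes, 5 of 7 remodelling genes and 4 of 5 genes of the transforming growth factor beta list (edgeR adjusted p under 0.01), beside 20.9% of all genes. The lists hold 19, 13, 10, 15 and 8 members in the same order, and those not tested did not pass the filter on low counts. A gene could pass it through the class where it was high, and Col4a2 and Cyr61 had 0 CPM in oligodendrocytes. These counts are therefore given as a description, and nothing is read from their distance to the share of all genes. Vtn, which encodes vitronectin and is also a mural marker, had a log2 fold change of 10.66 (SE 0.25), and Col4a1, a chain of collagen IV, 7.23 (SE 0.25). Lower in endothelial cells were 2 receptors and 1 remodelling gene, beside 21.1% of all genes. These were the integrin subunits Itgav and Itgb8, at -1.40 (SE 0.31) and -3.69 (SE 0.34), and the metalloprotease inhibitor Timp2, at -3.59 (SE 0.28).

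The genes most like Fn1 were sought by Pearson correlation of log2(CPM + 10) over 28 units, 7 classes in each of 4 libraries, which share library and depth, among 11815 genes outside the gates. The 10 highest were Ocln (r = 0.992), Ctla2a, Tm4sf1, AU021092, Srarp, Tek, Esam, She, Foxc1 and Foxf2 (r = 0.989), and 191 genes exceeded 0.9. Ocln and Esam encode junction proteins and Tek the angiopoietin receptor. Their genotype values are given as a description, since the correlation used the same libraries in which Fn1 was chosen as low. In the all-cell sums 8 of the 10 were lower and 0 higher without overlap, beside 13.2% and 13.1% of all genes, with a median log2 fold change of -0.91. In the endothelial sums 4 of the 10 were lower and 0 higher, beside 16.2% and 16.9% of all genes, with a median of -0.24 and a range from -0.70 (Tm4sf1) to 0.05.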

How the data were processed

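Per the labels, each library came from the hippocampus of 1 mouse. The authors deposited raw UMI counts per gene and barcode, made with Cell Ranger 3.0.2 against mm10, without normalization. Barcodes with at least 20% globin UMIs (205) or under 200 genes were removed, which left 6249 of 6464. A cell was given the class with the highest share of its 8 markers detected, if at least 3 were and no class tied. No doublet caller was run, and cells with at least 0.5 of a second class's markers were left out in an alternative. UMIs were summed per library, or per class and library, and tested with edgeR 4.0.16 (TMM, filterByExpr, quasi-likelihood test) in R 4.3.3, with Benjamini-Hochberg adjustment and a threshold of 0.01, the study's. The alternatives were DESeq2 1.42.0, RLE factors, no filter, a replicate block, a threshold of 0.05, each library left out, gates at 2 or 4 markers and other choices of cells. Thinned shares are expected values of the hypergeometric formula. Class makeup and level were averaged over both orders of replacement. Intervals are exact at 95% and cover counting error only. Python 3.11.15, numpy 2.4.6, pandas 2.3.3, scipy 1.17.1 and matplotlib 3.10.9 were used. The fits were tested on simulated data.

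Genes named by rule were Fn1, list genes past the threshold, the 3 per list with the largest log2 fold change among members without overlap, Col6a1, Col6a2, the 10 genes most like Fn1 (at least 100 UMIs, classes of at least 20 cells per library) and the leading markers of checked classes. Others were chosen after their values were seen. A gene that the rule names is not reported here. The gene and the lists were chosen with earlier results of these data known. The B cell gate had 3 markers of another class among its leading genes and its cells are not described, and the pigment cell gate held 0 cells. Of the 10 leading genes of the fibroblast gate only 1 was a marker of that gate, against 5 for the endothelial gate. Mgp, Nov, Prg4, Col6a1 and Slc47a1 led the others. The name fibroblast thus stands for the gate and not for a settled cell type. A list for capillary and venous cells was not used here.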

Additional observations from a re-analysis of the deposited data

Results flagged for a closer look

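The barcodes removed as red blood cells or for few genes, which enter no comparison above, also held Fn1. In 215 such barcodes there were 82 Fn1 UMIs, in 8 barcodes, and all 82 were in barcodes with at least 3 endothelial markers. WT replicates 1 and 2 had 7 and 30 of them and Dp(10)2Yey replicates 1 and 2 had 6 and 39. With these barcodes kept, the fitted all-cell log2 fold change of Fn1 was -1.53 in place of -1.62. Whether these droplets held an endothelial cell together with red blood cells was not tested.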

How the results depend on the processing

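Of 140 alternative values for 20 results, 109 stayed within the spread between replicates, on their side of the threshold or, for counts, within 1.5 times the main count. The last includes the classes called against oligodendrocytes, which numbered 3, and 2 when either WT replicate 2 or Dp(10)2Yey replicate 1 was left out. The lower all-cell level of Fn1 kept its direction in every alternative run, with a log2 fold change of -1.35 without the fibroblast, mural, choroid plexus, ependymal and peripheral myeloid gates, -1.36 without the cell of most Fn1 UMIs, -0.65 without mixed cells, which include that cell, and -1.72 to -1.48 with a library left out. Genes called in all-cell sums went from 0 to 4 with DESeq2, 88 without a filter, 2 without mixed cells and 1 to 14 with a library left out. Without a filter 1 list gene was called, Col6a1 (log2 fold change -2.0, edgeR adjusted p = 0.000218). Its adjusted p was 0.161 or more with DESeq2, RLE factors, the replicate block or a library left out. Its direction turned with WT replicate 2 left out (log2 fold change 1.11), and the lowest value was -5.35, with Dp(10)2Yey replicate 2 left out. Genes called within classes went from 3 to 9 with gates at 2 markers.

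Among Fn1-positive cells of all classes, the log2 ratio of their number was -0.077 without mixed cells, and that of UMIs per positive cell was -0.38 without mixed cells, -0.83 without the cell of most Fn1 UMIs and -1.30 to -0.86 with a library left out. In the endothelial gate the ratio of UMIs per positive cell was -0.17 without mixed cells and -0.79 to -0.54 with a library left out. The endothelial level had log2 ratios of -0.17 without mixed cells, -0.0076 as a mean of single-cell values, 0.15 under 5000 UMIs, -0.78 at 5000 UMIs or more and -0.75 to -0.33 with a library left out. The difference in the share of positive endothelial cells was 0.619 percentage points at 500 UMIs and 1.32 without thinning, opposite to the thinned value at 1000 UMIs, and -15.6 to -1.40 with a library left out. The log2 ratio of the endothelial share of cells was -0.55 to -0.31 and class makeup accounted for 34.6% to 71.3% with a library left out. The log2 fold change against oligodendrocytes was then 10.57 to 12.17 in endothelial cells, 2.43 to 5.07 in microglia, 3.01 to 4.50 in precursors and -1.16 to 3.27 in immature neurons. Fits that leave 1 library in a genotype assume that it varies like the others. Gates at 2 and 4 markers changed the endothelial class by 2 and 7 cells, of at most 560 and 857 UMIs and with 0 Fn1 UMIs, so they hardly probe the endothelial values. Alternatives without mixed cells or the cell of most Fn1 UMIs, by depth, by single-cell means or by other gates for the endothelial values were chosen after seeing the data, except that mixed cells were planned for the class contrast and makeup. The causes were not tested.

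The deviations of same-numbered libraries from their genotype means correlated at r = -0.01 over 13803 genes. This value cannot show whether the replicate number pairs libraries by day, since each genotype has only 2 libraries. With the number as a replicate block, Fn1 had a log2 fold change of -1.62, 0 genes were called in all-cell sums and 38 within classes, against 3.

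With 2 mice per genotype, few Fn1-positive cells per library and most Fn1 in a small number of deep droplets, the data do not settle how much of the lower sum belongs to cell number and how much to RNA per cell.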
